A study of Mus musculus with 10 samples.

Results

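The Gnas locus on chromosome 2 was described on 10 MeDIP-chip arrays of mouse left hemibrain. In this assay DNA that carries 5-methylcytosine is pulled down with an antibody and hybridised beside input DNA of the same sample, so that a higher ratio stands for more methylated DNA. The members are the 54 non-control probes, of 88737 on the array, whose mm9 position lies in chr2:174100000-174180000. All of them fell into the intervals given for the locus, 34 in the interval of Nesp, Nespas and Gnasxl (chr2:174105000-174127000) and 20 in that of exon 1A and the Gs-alpha promoter (chr2:174148000-174160000). The first probe starts at 174110137 and the last ends at 174156700. Probes whose starts lay at most 500 bp apart form 5 regions here, of 13835 on the array. The probes were chosen by position, and the locus was selected on measured values, namely the log2 ratio difference between the enriched and the standard diet at 1 of these regions. That comparison is therefore described at the locus without a test.

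All mice were male C57BL/6j mice, an inbred strain, and began a diet at an age of 3 weeks that lasted 24 weeks. The enriched diet (ERD, 4 arrays) had an n-3 to n-6 polyunsaturated fatty acid ratio of 7:1, the balanced diet (BLD, 3 arrays) one of 1:1, and the standard diet (STD, 3 arrays) one of 1:6. All sample titles end in CONTROL, also those of ERD and BLD, and the groups were taken from the diet label alone. Each title has its own number, but nothing says that a number stands for one animal. The p-values therefore reflect the spread among these arrays, which may be in part technical. A hemibrain mixes many cell types and both parental alleles, so more methylated cells and more methylation per cell cannot be told apart, nor can the parental alleles. The files pair no probe with a gene, and neither the locus name nor the tissue label was checked against annotated markers.

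Gnas encodes the alpha subunit of the stimulatory G protein, which couples hormone and neurotransmitter receptors to adenylyl cyclase. The locus is imprinted, which means that some of its transcripts are made from the allele of only one parent, and it uses several promoters. Nesp, which encodes the neuroendocrine secretory protein NESP55, is transcribed from the maternal allele, and its promoter is methylated on the paternal allele. Gnasxl, which encodes the long form XL-alpha-s, and the antisense transcript Nespas are transcribed from the paternal allele, and their promoter region is methylated on the maternal allele. Exon 1A begins a noncoding transcript of the paternal allele and carries a maternal methylation imprint, whereas the Gs-alpha promoter is known to be unmethylated on both alleles although the maternal allele is favoured in some tissues. Within a differentially methylated region of this kind, one methylated and one unmethylated allele are thus the known state.

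Promoter sequences are shown because the CpG dinucleotides in them are what the assay can detect. They come from RefSeq on the build GRCm38.p6, which is not the build of the probes, so no position was carried over. Each has 300 bases of the plus strand, written 5′ to 3′ with every CG in capitals. The entries were matched by the symbol Gnas and carry no promoter name. The names before them were assigned from the known order of the promoters along the strand, taking no entry as Gnasxl. This assignment was not checked.
Nesp promoter (chr2:174284070-174284369): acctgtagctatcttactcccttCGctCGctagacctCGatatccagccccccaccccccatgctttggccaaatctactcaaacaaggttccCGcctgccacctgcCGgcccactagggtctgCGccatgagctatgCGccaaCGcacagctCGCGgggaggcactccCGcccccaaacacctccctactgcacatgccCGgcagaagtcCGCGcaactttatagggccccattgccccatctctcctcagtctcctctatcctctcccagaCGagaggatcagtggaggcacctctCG
Exon 1A promoter (chr2:174327499-174327798): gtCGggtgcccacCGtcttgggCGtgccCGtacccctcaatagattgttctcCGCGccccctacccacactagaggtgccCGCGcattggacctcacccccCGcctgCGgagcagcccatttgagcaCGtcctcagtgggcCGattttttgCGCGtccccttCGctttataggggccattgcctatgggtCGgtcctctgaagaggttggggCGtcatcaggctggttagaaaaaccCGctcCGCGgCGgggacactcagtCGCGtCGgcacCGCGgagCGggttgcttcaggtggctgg
Gs-alpha promoter (chr2:174329756-174330055): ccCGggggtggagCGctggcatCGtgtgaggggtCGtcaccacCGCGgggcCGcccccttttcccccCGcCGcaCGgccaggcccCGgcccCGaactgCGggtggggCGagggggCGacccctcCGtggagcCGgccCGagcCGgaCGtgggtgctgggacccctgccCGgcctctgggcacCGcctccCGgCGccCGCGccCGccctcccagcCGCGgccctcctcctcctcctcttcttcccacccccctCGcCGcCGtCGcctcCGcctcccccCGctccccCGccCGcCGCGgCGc

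The Nesp window held 16 CG, the exon 1A window 27 and the Gs-alpha window 40. CG, searched as these 2 letters, reads the same on both strands. At least 1 CG was present in 94.6% of the 32851 promoters of the table, with a median of 7. As many CG as in the Nesp window or more were found in 33.0% of all promoters. For the exon 1A window this share was 15.5% and for the Gs-alpha window 3.91%. The GC content was 61.0% in the Nesp window, 64.3% in the exon 1A window and 81.7% in the Gs-alpha window. A second entry for exon 1A, at chr2:174327518-174327817, overlaps the one printed and held 28 CG. The promoters of Gnasxl and Nespas are not shown here.

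All values below are log2 ratios of immunoprecipitated (Cy5) over input (Cy3) intensity with the median of each array at 0, and the value of a region is the mean of its probes. Of the 54 probes, 31 (57.4%) were well above background in both channels on all 10 arrays, against 58.5% of all probes, and 2 on none. Differences between regions also depend on the probes' own sequence, so levels of different regions were not tested against each other.

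The log2 ratios of most of the locus were above the median of the array, and a ratio above it depends on a probe's sequence as well as on methylation. On each of the 10 arrays the 10-probe, 21-probe and 14-probe regions exceeded the array median, which 8.27% of all regions did, whereas the 3-probe region did so on 6 arrays and the 6-probe region on 5. Of the 52 probes with a value on every array, 12 (23.1%) lay above the array median on all 10, against 7.35% of all probes. None lay below it on all 10, against 10.4% of all probes. Of those 12 probes, 2 belong to the 10-probe region, 5 to the 21-probe region and 5 to the 14-probe region. After normexp background correction the 21-probe region alone was above the median on all 10 arrays, and the 10-probe and 14-probe regions were on 8. With that correction the means of these 3 regions along the locus were 0.10, 0.18 and 0.17 on ERD. They were 0.01, 0.02 and 0.01 on BLD and 0.01, 0.19 and 0.13 on STD. All were lower than without it. This setting also started from median spot and background intensities and added an offset of 50, and the part of each step was not tested. How far this setting lowers the level of other regions is not shown here.

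In the first interval, the 10-probe region (chr2:174110137-174111779) is the one nearest the start of the locus. Its values were 0.27, 1.14, 0.14 and 0.52 on the ERD arrays, 0.50, 0.53 and 0.19 on the BLD arrays and 0.07, 0.29 and 0.05 on the STD arrays. ERD replicate 2 was the highest of all arrays and the diets overlapped. The means were 0.52 ± 0.44 on ERD (SD, n = 4), 0.40 ± 0.19 on BLD and 0.14 ± 0.13 on STD (SD, n = 3 each). Its probe means ran between -0.12 and 0.94 on ERD, 0.09 and 0.62 on BLD and -0.38 and 0.53 on STD, with 9 of the 10 above 0 on ERD, 10 on BLD and 7 on STD. Among the mean levels of all regions the region stood at percentile 92.5 on ERD, 90.8 on BLD and 86.3 on STD.

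The 21-probe region (chr2:174124027-174126550), the longest of the locus at 2524 bp, lies in the same interval. Its values were 0.36, 1.03, 0.43 and 0.64 on ERD, 0.65, 0.40 and 0.30 on BLD and 0.31, 0.42 and 0.01 on STD. The lowest value came from an STD array and the highest from ERD replicate 2, and the diets overlapped. The means were 0.62 ± 0.30 on ERD (SD, n = 4), 0.45 ± 0.18 on BLD and 0.25 ± 0.21 on STD (SD, n = 3 each), or percentile 94.2 on ERD, 92.0 on BLD and 93.7 on STD. The means of its 21 probes ran between 0.10 and 1.85 on ERD, -0.50 and 1.03 on BLD and -0.51 and 1.06 on STD, with 21 above 0 on ERD, 18 on BLD and 16 on STD. The share of its spots that were well above background was 86.9% on ERD, 92.1% on BLD and 68.3% on STD.

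In the second interval, the 14-probe region (chr2:174152721-174155044) had 0.42, 1.22, 0.27 and 0.60 on ERD, 0.73, 0.59 and 0.19 on BLD and 0.06, 0.63 and 0.18 on STD. The lowest and the highest array of each diet lay farther apart than the diets' means, and the diets overlapped. The means were 0.63 ± 0.42 on ERD (SD, n = 4), 0.50 ± 0.28 on BLD and 0.29 ± 0.30 on STD (SD, n = 3 each), at percentile 94.4 on ERD, 93.2 on BLD and 95.2 on STD. The means of its 14 probes were above 0 in 13 probes on ERD, 13 on BLD and 12 on STD, and the highest were 1.11 on ERD, 0.84 on BLD and 0.77 on STD. Along the 20 probes of this interval, a signal above the median of every array was found in the 14-probe region and not in its neighbour 821 bp downstream.

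That neighbour, the 6-probe region (chr2:174155866-174156700), is the most downstream of the locus. Its values were -0.13, 0.10, -0.27 and 0.23 on ERD, 0.49, 0.17 and 0.05 on BLD and -0.14, -0.13 and -0.11 on STD. The BLD arrays were all above the STD arrays, while the ERD arrays spread over both. The means were -0.02 ± 0.23 on ERD (SD, n = 4), 0.24 ± 0.23 on BLD and -0.13 ± 0.02 on STD (SD, n = 3 each), at percentile 55.7 on ERD, 82.8 on BLD and 29.1 on STD. Of its 6 probe means, 2 were above 0 on ERD, 5 on BLD and 3 on STD. Its spots were mostly bright, with 95.8% well above background on ERD, 94.4% on BLD and 83.3% on STD.

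The 3-probe region (chr2:174122729-174123051), which lies 975 bp before the 21-probe region, is where the diets stood farthest apart. It had 0.78, 1.47, 0.59 and 0.98 on ERD, 0.60, 0.69 and -0.01 on BLD and -0.05, -0.14 and -0.19 on STD. All ERD arrays were above all STD arrays, and BLD replicate 3 lay just above the highest STD array. The means were 0.96 ± 0.38 on ERD (SD, n = 4), 0.43 ± 0.38 on BLD and -0.12 ± 0.07 on STD (SD, n = 3 each). This is the region whose difference between ERD and STD was known when the locus was chosen, and that difference of 1.08 stood at percentile 99.9 of all regions. Its level among all regions stood at percentile 99.3 on ERD, 91.4 on BLD and 30.1 on STD.

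Ranked within each array, the 3-probe region lay between percentile 97.5 and 99.2 of all regions on ERD. It was at 92.3, 94.8 and 54.1 on BLD and at 46.1, 34.7 and 19.8 on STD. A rank within an array stays the same when all ratios of that array are scaled alike. For the 3-probe region the ranks on ERD and STD come from the values by which the locus was chosen, so they are a description. By the same measure the 21-probe region averaged percentile 93.1 on ERD, 90.9 on BLD and 83.8 on STD, the 14-probe region 92.3 on ERD, 91.2 on BLD and 85.0 on STD, and the 10-probe region 86.9 on ERD, 89.1 on BLD and 77.3 on STD. The diets overlapped in these 3 regions. The 6-probe region was at 38.9, 66.1, 23.2 and 83.1 on ERD, 89.7, 70.2 and 66.6 on BLD and 28.7, 35.5 and 33.4 on STD.

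The 3 probes of the 3-probe region did not behave alike. The probe at 174122729-174122773 had 1.09, 1.06, 1.86 and 0.77 on ERD, 0.41, 0.63 and 0.16 on BLD and 0.33, 0.16 and -0.19 on STD, so that no ERD array overlapped another diet. The probe at 174122821-174122865 had 0.45, 1.39, -0.11 and 0.73 on ERD, 0.76, 0.89 and 0.31 on BLD and 0.45, 0.15 and 0.09 on STD, with overlap between all diets. The probe at 174122995-174123051 had 0.82, 1.96, 0.02 and 1.45 on ERD, 0.62, 0.55 and -0.50 on BLD and -0.92, -0.73 and -0.46 on STD, so that all ERD arrays were above all STD arrays. The difference of ERD minus STD was 1.09 for the first probe, 0.38 for the second and 1.77 for the third. The second was the only one well above background on all 10 arrays. The first was so on 9 arrays and the third on 6, of which 2 were of each diet. The part of these dim spots in the difference was not tested, beyond the 0.38 left when only the bright probe was kept and the 0.65 of ERD minus STD when the median of the 3 probes was taken. With normexp background correction the difference was 0.04.

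The 2 dyes were also read apart, as log2 intensity with the median of each channel of an array at 0. The immunoprecipitated channel of the 3-probe region was at -0.68, 0.21, -1.63 and -1.04 on ERD, -0.60, -0.81 and -1.09 on BLD and -1.21, -0.94 and -1.44 on STD, with overlap between all diets. The input channel was at -1.65, -1.30, -2.43 and -2.19 on ERD, -1.37, -1.61 and -1.11 on BLD and -1.24, -0.91 and -1.30 on STD. In the input, all 4 ERD arrays were below every STD array, although the highest ERD and the lowest STD array both round to -1.30. ERD minus STD came to 0.42 in the immunoprecipitated channel and to -0.74 in the input channel, so the larger of the 2 was in the input channel. The input means were -1.89 ± 0.51 on ERD (SD, n = 4), -1.36 ± 0.25 on BLD and -1.15 ± 0.21 on STD (SD, n = 3 each). The same difference was -0.69 in the input channel of the 10-probe region and -0.23 in its immunoprecipitated channel. In the 21-probe region it was 0.51 in the immunoprecipitated channel and 0.07 in the input channel.

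Between the enriched and the balanced diet, the locus gave no difference that passed the test. Of the 4 regions other than the 3-probe region, and of their 51 probes, none passed an adjusted p of 0.05. This was in limma with Benjamini-Hochberg adjustment, where none passed on the whole array. The 3-probe region, whose ERD values took part in the choice of the locus, is given by its difference alone, 0.53 with all arrays and 0.31 without BLD replicate 3. It is left out of all these counts. At an unadjusted p under 0.05 stood 0 of the other 4 regions, against 10.2% of all regions, and 7 of their 51 probes (13.7%), against 11.7% of all probes. Of these 7 probes, 6 had the higher mean on ERD. Over the whole array, 4939 of the 10368 probes at that p did, which is 5.57% of all probes.

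The 6-probe region differed by -0.25 (SE 0.14, limma adjusted p = 0.547), with the lower mean on ERD in all 6 of its probes, and by -0.13 without BLD replicate 1 and -0.17 without ERD replicate 3. In the 10-probe region the difference was 0.11 (SE 0.20), in the 21-probe region 0.17 (SE 0.16) and in the 14-probe region 0.13 (SE 0.22), with limma adjusted p-values between 0.761 and 0.883. Without ERD replicate 2 these 3 differences were -0.09 in the 10-probe region, 0.03 in the 21-probe region and -0.07 in the 14-probe region. Without BLD replicate 3 they were 0.01 in the 10-probe region, 0.09 in the 21-probe region and -0.03 in the 14-probe region. Over all arrays left out in turn, they ran between -0.09 and 0.24, 0.03 and 0.26, and -0.07 and 0.25.

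In none of these 4 regions were the ERD and BLD arrays free of overlap, against 10.1% of all regions, and the diets did not overlap in 2 of 49 probes (4.08%), against 11.5% of all probes. The mean was higher on ERD in 3 of the 4 regions, against 43.6% of all regions, and in 29 of the 51 probes (56.9%), against 46.7% of all probes. The median difference of the probes was 0.06, against -0.03 over all probes.

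Between the balanced and the standard diet again no region passed. The BLD mean was higher in all 4 regions other than the 3-probe region, against 56.7% of all regions. In limma with Benjamini-Hochberg adjustment 0 of these 4 regions and 0 of their 51 probes passed, with 0 on the whole array. The 3-probe region, whose STD values took part in the choice of the locus, had a difference of 0.55 and is left out of all these counts. At an unadjusted p under 0.05 stood 1 of the other 4 regions, against 11.2% of all regions, and 6 of their 51 probes (11.8%), against 10.5% of all probes. Of these 6 probes, 5 had the higher mean on BLD. Over the whole array, 5494 of the 9335 probes at that p did, which is 6.19% of all probes.

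That region was the 6-probe region, with 0.37 (SE 0.15, limma adjusted p = 0.440). All its BLD arrays lay above all its STD arrays, as in 11.1% of all regions, where 17.4% had no overlap in either direction. Its difference was 0.24 without BLD replicate 1 (limma unadjusted p = 0.128) and 0.23 with only its 4 probes that were well above background on every array (limma unadjusted p = 0.145), so the unadjusted p was above 0.05 without that array and without the dim probes. The differences were 0.27 (SE 0.21) in the 10-probe region, 0.20 (SE 0.17) in the 21-probe region and 0.21 (SE 0.23) in the 14-probe region, with limma adjusted p-values between 0.614 and 0.717. With bright probes only they were 0.19 in the 10-probe region, 0.05 in the 21-probe region and 0.08 in the 14-probe region.

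Single arrays moved the last 2 of these. In the 21-probe region BLD minus STD was 0.09 without STD replicate 3 and 0.10 without BLD replicate 1. In the 14-probe region it was 0.10 with either STD replicate 1 or BLD replicate 1 left out. It was 0.37 with BLD replicate 3 left out and 0.38 with STD replicate 2 left out. With normexp background correction every one of the 5 region differences was below 0, between -0.17 and -0.000214.

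Of 50 probes, 8 (16.0%) had no overlap between BLD and STD, 7 of them with BLD higher, against 16.6% of all probes. Of the 51 probes, 38 (74.5%) had the higher mean on BLD, against 52.2% of all probes, and their median difference was 0.32, against 0.02 over all probes. These values are set against all probes, not against probes at a like level. The median of the regions in the highest 10% by BLD mean averaged 0.59 on BLD and 0.24 on STD. Their choice by the BLD mean favours BLD. The comparisons of BLD with ERD and with STD use the same BLD arrays.

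Between the enriched and the standard diet, as a description, the ERD mean was higher in the 3-probe region, by which the locus was chosen. It was also higher in the other 4 regions, against 50.6% of all regions. The differences were 0.38 in the 10-probe region, 1.08 in the 3-probe region, 0.37 in the 21-probe region, 0.34 in the 14-probe region and 0.11 in the 6-probe region. Without ERD replicate 2 they were 0.17 in the 10-probe region, 0.23 in the 21-probe region, 0.14 in the 14-probe region and 0.07 in the 6-probe region. The 14-probe difference was 0.22 without STD replicate 1. The 6-probe difference was 0.03 without ERD replicate 4 and 0.20 without ERD replicate 3. In the 3-probe region leaving out 1 array gave 0.91 to 1.20. ERD and STD arrays were free of overlap in the 3-probe region and overlapped in the other 4. Of all regions, 16.2% had no overlap, and 7.24% had none with ERD higher. The 3-probe region is left out of the next 2 counts. Of 50 probes, 9 (18.0%) had no overlap, all with ERD higher, against 16.4% of all probes in either direction. The mean was higher on ERD in 39 of the 51 probes (76.5%), against 53.3% of all probes. Their median difference was 0.33, against 0.03 over all probes. All probes are not at a like level: the median of the regions in the highest 10% by BLD mean averaged 0.64 on ERD and 0.24 on STD. By region, with the 3-probe region included, the ERD mean was higher for 8 of 10, 3 of 3, 17 of 21, 11 of 14 and 3 of 6 probes along the chromosome. With only the probes well above background on every array, ERD minus STD was 0.35 in the 10-probe region, 0.38 in the 3-probe region, 0.19 in the 21-probe region, 0.22 in the 14-probe region and -0.04 in the 6-probe region. With normexp background correction it was between -0.01 and 0.10.

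The mean spread of the whole array was highest on ERD and lowest on STD, and the BLD arrays overlapped both. The interquartile range of all log2 ratios was 0.71 ± 0.08 on ERD (SD, n = 4), 0.61 ± 0.20 on BLD and 0.47 ± 0.08 on STD (SD, n = 3 each). It was 0.74, 0.71 and 0.38 on the BLD arrays, 0.61 to 0.79 on ERD and 0.38 to 0.53 on STD. With all arrays scaled to one spread, ERD minus STD was 0.27 in the 10-probe region, 0.97 in the 3-probe region, 0.24 in the 21-probe region, 0.17 in the 14-probe region and 0.16 in the 6-probe region. The median of the locus probes was 0.19, 1.08, 0.21 and 0.52 on ERD, 0.63, 0.48 and 0.27 on BLD and 0.10, 0.39 and 0.10 on STD. For comparison, the median of the regions that make up the highest 10% by their BLD mean was 0.40, 1.19, 0.36 and 0.60 on ERD, 0.75, 0.68 and 0.35 on BLD and 0.17, 0.45 and 0.10 on STD. Both medians were highest on ERD replicate 2, and 4 regions of the locus are themselves among that 10%. The part of the spread in the locus differences was not tested beyond the scaled values.

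The arrays sat on 5 slides, and ERD shared no slide with another diet, so slide and diet cannot be told apart for ERD. BLD replicate 3 and STD replicate 1 shared a slide. On that slide, BLD minus STD was 0.12 in the 10-probe region, 0.04 in the 3-probe region, -0.01 in the 21-probe region, 0.13 in the 14-probe region and 0.19 in the 6-probe region. The 3-probe difference on that slide was under the 0.55 over all arrays. BLD replicate 3 was the lowest BLD array in that region, at -0.01 against 0.60 and 0.69. Slide and array cannot be told apart from 1 pair of arrays.

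The regions of the locus moved together over the 10 arrays to differing degrees, as a description, since all share the arrays' spread. Pearson's r was between 0.75 and 0.95 for pairs among the 10-probe, 3-probe, 21-probe and 14-probe regions and between 0.40 and 0.54 for pairs with the 6-probe region. Outside the locus, the regions most like the 21-probe region by Pearson's r over the 10 arrays were chr9:62129773-62130155 (r = 0.991), chr10:79476272-79476671 (r = 0.989) and chr11:59063116-59063590 (r = 0.981). Those most like the 14-probe region were chr7:31140698-31141181 (r = 0.992), chr10:79138046-79138694 (r = 0.989) and chr3:88288420-88289125 (r = 0.983). Each of these 6 regions had its highest mean on ERD and its lowest on STD, as the 2 regions of the locus did. This shared order follows from their choice by r over the same 10 arrays and is no separate result.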

How the data were processed

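For each probe the processed Cy5 intensity was divided by the processed Cy3 intensity and log2 was taken. The deposited processed intensity had its background subtracted and the dyes brought to one scale with a linear factor, per the file headers. The headers give Agilent Feature Extraction 10.7.3.1, and version 9.0 is listed in the submitters' processing notes. The deposited series table holds the same log10 ratio and differs from it by at most 0.00498. Positions are mm9, per the file headers. Per the labels, Cy5 was the immunoprecipitated and Cy3 the input DNA on all arrays, with no dye swap, so a dye effect on a probe remains in its level.

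Outlier-flagged spots were dropped before each array was centred on its median. Regions held at least 3 probes with starts at most 500 bp apart. limma 3.58.1 (R 4.3.3) was fitted to all 10 arrays with no covariate, on all 13835 regions or all 88737 probes. P-values were adjusted by Benjamini-Hochberg, and the threshold was 0.05. Other settings were normexp on the median spot and background intensity with an offset of 50, loess, quantile normalization, one spread, the series table, brightness and outlier filters, the median of probes, gaps of 300 and 1000 bp, the slide as a block, only the 2 diets compared, and each array left out. On simulated data with 13835 regions, limma recovered 32% of shifts of 0.5 and 93% of shifts of 1 in BLD minus STD, with 7 false calls. The simulated noise was independent between regions and arrays, so movement shared by regions, which the real arrays have, was not simulated.

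The members, regions and tests were chosen with earlier results of these data known. Named with all values were the region with most probes in each interval, the regions with the highest and lowest BLD mean and the one with the lowest p for ERD minus STD. The 10-probe region, the only other one, was added. No arrays had identical values. The number of arrays limits the precision.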

Additional observations from a re-analysis of the deposited data

Results flagged for a closer look

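In the immunoprecipitated channel of the 6-probe region, ERD replicate 3 stood apart from the other ERD arrays. The log2 intensity was 0.51, 0.54, 0.11 and 0.53 on ERD, 0.69, 0.51 and -0.15 on BLD and -0.12, 0.10 and -0.24 on STD. The gap from ERD replicate 3 to the nearest ERD array was 0.933 of the range of the ERD arrays, above Dixon's critical value of 0.829 for 4 arrays. Chance gives such a gap in about 5% of groups, and 23 groups were examined.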

How the results depend on the processing

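Of the regions other than the 3-probe region, none passed the adjusted threshold in either comparison under any of the 22 settings. None of their probes did where probes were fitted. Probes were not refitted for the median of probes or the 300 and 1000 bp gaps, and the 3-probe region had too few bright probes for a value. On single regions of the locus, 103 results of ERD minus BLD and 104 of BLD minus STD kept their direction, and 6 and 5 turned. With normexp, ERD minus BLD in the 6-probe region was 0.0431, and BLD minus STD was -0.000214, -0.0182, -0.171, -0.114 and -0.0273 along the locus. The whole array changed as well. For ERD minus BLD, 0.484% of all regions stood at a limma unadjusted p under 0.05 with normexp, against 10.2% without it. For BLD minus STD it was 3.59%, against 11.2%. ERD minus BLD was -0.137 in the 14-probe region with starts at most 300 bp apart, which leaves fewer probes in it, and 0.0141 in the 6-probe region with 1000 bp, which joins it to the 14-probe region. Leaving out 1 array moved ERD minus BLD between -0.093 and 0.239 in the 10-probe region and between -0.0701 and 0.247 in the 14-probe region. The turn came without ERD replicate 2 and, in the 14-probe region, also without BLD replicate 3 (-0.0278). For BLD minus STD, 2 regions of the array passed with only those diets in the fit. Leaving out 1 array gave 0 to 2 regions and 0 to 566 probes for BLD minus STD and 0 to 427 probes for ERD minus BLD, where 566, 427 and 1 region came without BLD replicate 3 and 2 regions without ERD replicate 2. Quantile normalization and scaling gave 1 probe each for ERD minus BLD. The ERD mean was above the STD mean in 4 of 5 regions with normexp and in 3 of 4 regions of bright probes. For these changes the cause was not tested. The limma adjusted p ranged over the settings between 0.396 and 0.997 for ERD minus BLD and between 0.171 and 0.973 for BLD minus STD in the 6-probe region. No paired analysis was possible because the labels give no shared replicate numbers. Dim spots limit the 3-probe region, of whose probes 1 was well above background on all arrays.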

Other observations

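The 2 probes of the locus with the lowest unadjusted p for BLD minus STD, chosen after their values were seen, differed in opposite directions. At chr2:174126062-174126106, in the 21-probe region, the log2 ratio was -0.39, 0.00, 0.89 and 0.92 on ERD, -0.33, -1.29 and 0.11 on BLD and 0.91, 1.45 and 0.82 on STD. All BLD arrays lay below all STD arrays, by -1.56 on the log2 scale (limma adjusted p = 0.464, SE 0.41), and the probe was well above background on all 10 arrays. The mean of the region around it was higher on BLD. At chr2:174156654-174156700, the last probe of the 6-probe region, the log2 ratio was 0.66, 0.61, 0.17 and 0.45 on ERD, 0.76, 0.68 and 0.16 on BLD and 0.07, -1.13 and -1.15 on STD. Its BLD minus STD difference was 1.27 (SE 0.32, limma adjusted p = 0.464). It was well above background on all 4 ERD arrays, on 2 BLD arrays and on none of the STD arrays.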
